A study of Mus musculus with 2 samples.

Results

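The bone morphogenetic protein (BMP) to SMAD signalling genes and the Id genes were examined in differentiating mouse ES cells depleted of *Kdm5b*. The 10 genes, chosen by their symbols from 21935 symbols, were the ligand gene *Bmp4*, the receptor genes *Bmpr1a* and *Bmpr2*, the SMAD genes *Smad1*, *Smad5* and *Smad6*, and *Id1*, *Id2*, *Id3* and *Id4*. All 10 were present, and of several RefSeq transcript entries of a symbol the most abundant, by the mean of both libraries, was taken. Polyadenylated RNA of the mouse ES cell line R1 was sequenced after 72 h of culture without LIF, a cytokine that keeps ES cells undifferentiated. 1 library came from shKdm5b ES cells, which carried a lentiviral short hairpin RNA against *Kdm5b*, and 1 came from shLuc ES cells, which carried a hairpin against luciferase as the control. Both cultures had been transduced and selected with puromycin, had been kept on irradiated embryonic fibroblasts before differentiation, and were differentiated in the same serum-containing medium. For this step the labels name low-attachment dishes and the methods either these or gelatin-coated ones. With 1 library per group, no difference has a replicate check or a test, and the hairpin and the library cannot be told apart.

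BMP ligands bind pairs of type I receptors such as BMPR1A and type II receptors such as BMPR2. The activated receptors phosphorylate SMAD1, SMAD5 and SMAD9, which join SMAD4 and enter the nucleus, where the *Id* genes are among their best known direct targets. ID proteins lack a DNA-binding region and hold E proteins and their partners away from DNA, and in ES cells BMP acting through ID proteins is known to restrain neural differentiation alongside LIF. The inhibitory SMAD6 and SMAD7 feed back on the pathway.

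The libraries held 78172700 (shLuc) and 72702699 (shKdm5b) reads by the totals behind the RPKM values, which are reads normalised to transcript length and library size. Where a pair of values is given, shLuc comes first. *Kdm5b* itself was at 104 RPKM (51378 reads) with shLuc and 3.01 RPKM (1377 reads) with shKdm5b. All 10 listed ES cell marker genes were above an RPKM of 1 in both libraries, from 8.87 for *Klf4* to 1651 for *Dppa5a*. Of these, 1 was higher and 2 were lower past the thresholds given below (30%, against 48.3% of all genes above the RPKM threshold). *Pou5f1*, which encodes the pluripotency factor OCT4, was at 619 and 182 RPKM (log2 ratio -1.76, and -1.03 and -1.29 after the corrections given below), and *Esrrb* at 80.5 and 41.2 RPKM (-0.96, and -0.31 and -0.16). Markers of other cell types also differed between the libraries. All 9 listed primitive or visceral endoderm genes had a lower level in the shKdm5b library, and their summed RPKM was 29.5 with shLuc and 4.89 with shKdm5b. *Dab2*, which encodes an endocytic adaptor abundant in this endoderm, made up most of that sum at 18.5 and 3.15 RPKM, while *Afp* was at 0 reads in the shKdm5b library. Of 12 fibroblast genes, which would mark feeder cells, only *Thy1* and *Twist1* passed an RPKM of 1 in either library, and the list summed to 7.51 and 13.5 RPKM. The defining fibroblast collagens were near 0, with *Col1a1* at 0.474 and 0.395 RPKM and *Col3a1* at 0.0345 and 0.042 RPKM. The part of these cell types in the values below was not tested, and in bulk RNA fewer cells of a type and less RNA per cell cannot be told apart.

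In the deposited values, the largest difference among the 10 genes was that of *Id2*, which was 3.04-fold higher in the shKdm5b library, while its paralog *Id3* and the SMAD gene *Smad5* were lower, at 46.5% and 58.0% of the shLuc level. *Id1*, *Bmp4*, *Bmpr1a*, *Bmpr2*, *Smad1* and *Id4* stayed within 1.5-fold. A gene was counted as different when its log2 ratio of shKdm5b to shLuc, taken on log2(RPKM + 0.1), lay beyond 1.5-fold and its RPKM was above 1 in at least 1 library. Of the 10 genes, 9 passed the RPKM threshold and *Smad6* did not. Of the 9, 3 passed the fold change threshold (33.3%), 1 higher and 2 lower. Among all 11804 genes above the same RPKM threshold 48.3% were past it, 16.3% higher and 32.0% lower, so in the deposited values the share among the BMP-SMAD and Id genes was not above that of expressed genes at large. Their log2 ratios had a median of 0.27 over all 10, against -0.21 for the 11804 genes. When the libraries were scaled to a median log2 ratio of 0, the split over all genes moved from 1921 higher and 3781 lower to 2606 higher and 3026 lower, and that over the 10 genes moved from 1 and 2 to 3 and 2.

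**Figure D1:**
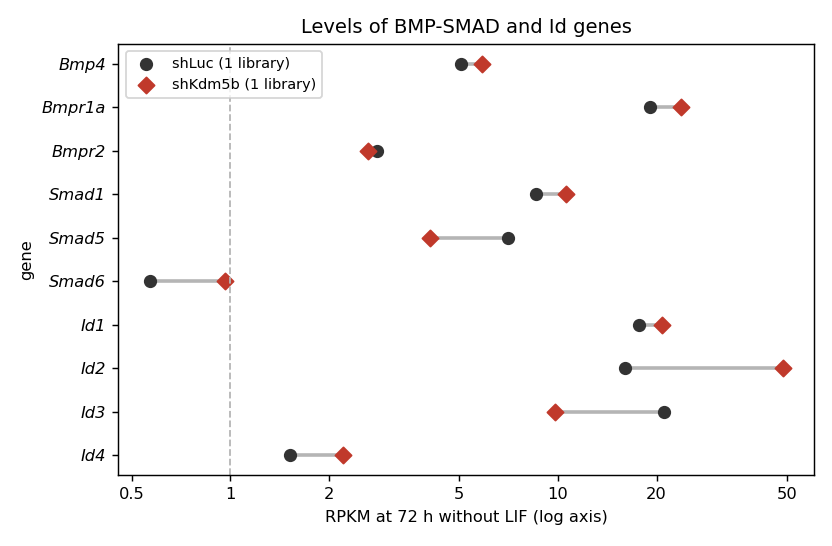
RPKM (log axis) of each of the 10 genes in the shLuc library (circles) and the shKdm5b library (diamonds), 1 library each, with a grey line joining the values of a gene and a dashed line at an RPKM of 1. *Id2* moves from 16.0 to 48.6 and *Id3* from 21.1 to 9.81, while *Smad6* lies below 1 in both.

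**Figure D2:**
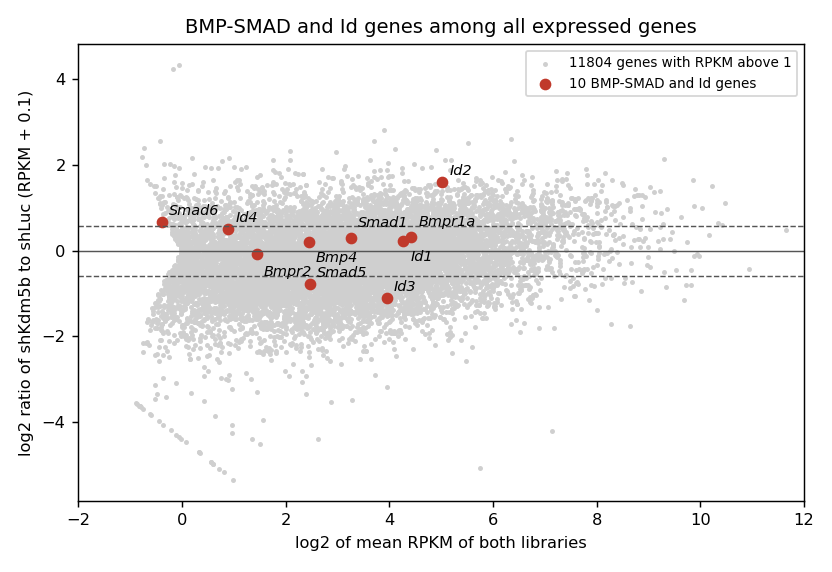
Log2 ratio of shKdm5b to shLuc against the log2 of the mean RPKM for 11804 genes with RPKM above 1 in at least 1 library (grey) and for the 10 BMP-SMAD and Id genes (red), with dashed lines at 1.5-fold. *Id2* lies near the upper edge of the cloud, at 1.60.

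Across all genes the log2 ratio was lower for transcripts of higher GC content (Spearman rho -0.53 over 11535 genes, which share these libraries and are not replicates). Values after a smooth curve of GC content, or of GC content and then transcript length, was taken out are therefore given for each of the 10 genes, and for many of the others. Of the genes 37.0% were past the thresholds with the GC correction and 32.2% with both. All 10 genes then passed the RPKM threshold, and 5 were past the fold change threshold after the first (50%, 4 higher and 1 lower) and 4 after the second (40%, 2 higher and 2 lower). The share among the 10 was thus below that of all genes in the deposited values and above it after either correction, a matter of 1 or 2 genes. The part of GC content in the differences was not tested.

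The *Id* genes were taken first. The bases before the transcription start sites of *Id2* and *Id3* are shown because these paralogs differed in opposite directions. They are the 250 bases upstream of the RefSeq start sites in GRCm38.p6, at chr12:25096093-25096342 on the minus strand for *Id2* and at chr4:136143572-136143821 on the plus strand for *Id3*, written 5′ to 3′. Capitals mark matches to 4 motifs searched on both strands, GGCGCC (a GC-rich SMAD1/5 element), AGAC (the SMAD box, GTCT on the other strand), and the E-boxes CACGTG and CAGCTG.
*Id2*: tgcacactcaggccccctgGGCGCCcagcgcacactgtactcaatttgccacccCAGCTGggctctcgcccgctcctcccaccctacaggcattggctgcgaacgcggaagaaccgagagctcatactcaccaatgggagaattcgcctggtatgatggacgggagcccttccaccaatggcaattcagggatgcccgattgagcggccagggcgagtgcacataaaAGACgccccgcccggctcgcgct
*Id3*: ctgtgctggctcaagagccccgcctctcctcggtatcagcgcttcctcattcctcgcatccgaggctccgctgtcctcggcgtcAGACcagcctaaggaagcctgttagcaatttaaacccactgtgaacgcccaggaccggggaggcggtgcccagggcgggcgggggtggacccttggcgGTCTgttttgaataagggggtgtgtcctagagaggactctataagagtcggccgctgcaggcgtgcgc
In these windows *Id2* held 1 GGCGCC, 1 AGAC and 1 CAGCTG, and *Id3* held 2 SMAD boxes and none of the 6-base motifs, which read the same on both strands. No matches overlapped in these windows. Over 32851 windows of the same length, 9.59% held GGCGCC, 82.9% held the SMAD box, 13.0% held CAGCTG and 6.02% held CACGTG. Both windows had a GC content of 62.8% and 18 CpG dinucleotides. The *Id4* window also held 1 GGCGCC, as did those of *Bmpr1a*, *Bmpr2* and 1 of 3 *Smad5* start sites. Of the 10 genes, 9 had a window in the RefSeq table, and *Id1* had none. These matches are letters in a window and not measured binding.

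*Id2* was at 16.0 RPKM (1592 reads) with shLuc and 48.6 RPKM (4495 reads) with shKdm5b. The log2 ratio was 1.60 (95% counting interval 1.52 to 1.69), at percentile 99.1 of the log2 ratios of the expressed genes. The counting interval of a log2 ratio is an exact Clopper-Pearson interval from the reads of the gene with shLuc and with shKdm5b. It takes no pseudocount, whereas the log2 ratio adds 0.1 RPKM to both values. At low RPKM the ratio can therefore lie off the centre of its interval or outside it. This and the other counting intervals below cover counting error only. The *Id2* transcript has a low GC content of 42.4%. Its log2 ratio was 1.25 with the GC correction and 0.95 when length was also corrected for, and it stayed past the thresholds in all 13 alternatives tried. *Id2* encodes an ID protein with roles in neural, blood and epithelial progenitors, and lies at chr12:25093799-25096092 of GRCm38.p6.

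*Id3* was at 21.1 RPKM (1574 reads) with shLuc and 9.81 RPKM (680 reads) with shKdm5b. The log2 ratio was -1.10 (counting interval -1.24 to -0.98). With a transcript GC content of 55.6%, the log2 ratio of *Id3* was -0.49 after the GC correction, which is within 1.5-fold, and -1.01 after the GC and length correction. *Id3* lies at chr4:136143822-136145392. Its direction was the same under each correction and scaling, with log2 ratios from -1.11 to -0.49.

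*Id1*, commonly used as a readout of BMP signalling, was at 17.7 RPKM (1260 reads) with shLuc and 20.7 RPKM (1374 reads) with shKdm5b. The log2 ratio was 0.23 (counting interval 0.12 to 0.34), within 1.5-fold. The correction for GC content alone took *Id1* to 0.82, past the threshold, and the correction for GC content and length returned it to 0.26. At 911 bases its entry is the shortest of the 10, and the gene lies at chr2:152736251-152737410.

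*Id4* was the least abundant *Id* gene, at 1.52 RPKM (197 reads) with shLuc and 2.20 RPKM (266 reads) with shKdm5b. Its log2 ratio was 0.51 (counting interval 0.27 to 0.81) and was 0.19 and 0.07 after the corrections, while either scaling of the libraries took it past 1.5-fold. *Id4* lies at chr13:48261116-48266028. Its annotated exons share 82 and 171 bases with the opposite-strand transcripts *A330033J07Rik* and *Gm49291*, and because the use of strand in counting is not stated, reads from these could be included.

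Because values of a pair of genes within 1 library share its depth, their ratio does not depend on how the libraries were scaled, though it does depend on the GC and length corrections. Its interval comes from the reads of both genes in that library by the same method. In the shLuc library *Id2* was at 0.758 of the RPKM of *Id3* (counting interval 0.706 to 0.813), and in the shKdm5b library at 4.95 times that RPKM (4.57 to 5.38), a change of 6.54-fold. After the GC correction the change was 3.36-fold, and with the added length correction 3.90-fold. The *Id1* to *Id3* ratio went from 0.837 (0.777 to 0.902) to 2.11 (1.93 to 2.32), a change of 2.52-fold that was 2.48-fold and 2.42-fold after the corrections. The ratio of *Id2* to *Id1* went from 0.905 (0.840 to 0.975) to 2.34 (2.21 to 2.49), a change of 2.59-fold that was 1.35-fold after the GC correction and 1.61-fold with length added. In the deposited values the summed RPKM of the 4 *Id* genes was 56.3 with shLuc and 81.4 with shKdm5b. This sum and the shares that follow were not taken after the corrections, and they can depend on them. The log2 ratio of *Id2* was 1.25 and 0.95 after the corrections, against 1.60 as deposited. That of *Id1* was 0.82 and 0.26, against 0.23. *Id3* made up the largest share in the shLuc library at 37.5%, ahead of *Id1* at 31.4% and *Id2* at 28.4%. In the shKdm5b library *Id2* made up 59.7%, *Id1* 25.5% and *Id3* 12.1%, while *Id4* made up 2.69% with shLuc and 2.71% with shKdm5b.

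**Figure D3:**
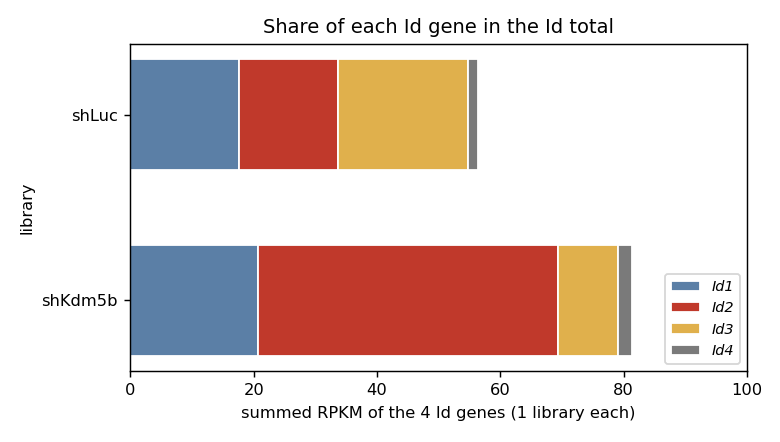
Summed RPKM of the 4 *Id* genes as deposited, without the GC or length correction, in each library (1 library per bar), with coloured segments for the RPKM of each gene. The *Id2* segment is 16.0 long in shLuc and 48.6 in shKdm5b, the *Id3* segment shortens from 21.1 to 9.81, and the *Id1* segment is of similar length in both.

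The receptor-activated SMAD genes also differed from each other. *Smad5* was at 7.02 RPKM (3614 reads) with shLuc and 4.07 RPKM (1949 reads) with shKdm5b, a log2 ratio of -0.77 (counting interval -0.87 to -0.71). *Smad1*, its close paralog, had an RPKM of 8.55 (2036 reads) and 10.6 (2343 reads), a log2 ratio of 0.30 (0.22 to 0.39). *Smad1* thus held 54.9% of the summed RPKM of the pair with shLuc and 72.2% with shKdm5b, while the sum itself was 15.6 and 14.7. Within a library, the ratio of *Smad1* to *Smad5* went from 1.22 (1.15 to 1.29) to 2.60 (2.45 to 2.76), a change of 2.13-fold that was 2.80-fold and 2.54-fold after the corrections. After the GC correction the log2 ratio of *Smad5* was -0.98, and with the added length correction -0.76. That of *Smad1* was 0.48 and 0.56, within 1.5-fold. Scaling to equal 75th percentiles left *Smad5* at -0.58, just within 1.5-fold. *Smad5* lies at chr13:56703010-56742378 and *Smad1* at chr8:79338395-79399428. The 3 *Smad5* entries, with 3610 to 3618 reads in shLuc and 1949 in shKdm5b, gave log2 ratios of -0.77 each. Of its 7420 annotated exon bases, 100 are shared with the small RNA gene *Gm27301* on the same strand.

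*Smad6*, which encodes an inhibitory SMAD and is itself BMP-responsive, was at 0.569 RPKM (132 reads) with shLuc and 0.963 RPKM (208 reads) with shKdm5b. The gene lies at chr9:63953076-64022085. It did not pass the RPKM threshold. Its log2 ratio was 0.67 (counting interval 0.44 to 1.09), and with a transcript GC content of 60.8% it was 1.50 with the GC correction and 1.57 when length was also corrected for. Under either correction or scaling its RPKM in the shKdm5b library passed 1 and it was past 1.5-fold, so its call depends on the processing.

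The ligand and receptor genes showed small differences. *Bmp4*, a ligand gene expressed in the epiblast and extraembryonic ectoderm of the embryo, was at 5.05 RPKM (787 reads) with shLuc and 5.85 RPKM (847 reads) with shKdm5b. The log2 ratio was 0.21 (counting interval 0.07 to 0.35), and 0.60 after the GC correction, just past 1.5-fold. *Bmpr1a*, the more abundant receptor gene, had an RPKM of 19.0 (8157 reads) and 23.8 (9468 reads), a log2 ratio of 0.32 (0.28 to 0.36) that became -0.09 with the GC correction and 0.10 when length was also corrected for. *Bmpr2*, the type II receptor gene, had an RPKM of 2.80 (767 reads) and 2.63 (671 reads), a log2 ratio of -0.09 whose counting interval of -0.24 to 0.06 holds 0. It was -0.49 and -0.37 after the corrections. The directions of *Bmpr1a* and *Bmpr2* therefore changed with the processing, *Bmpr1a* under the GC correction and *Bmpr2* under the scalings, where it reached 0.10. *Bmp4* lies at chr14:46383525-46390669, *Bmpr1a* at chr14:34411061-34503336 and *Bmpr2* at chr1:59764279-59878081. Annotated exons on the opposite strand share 89 of 2248 exon bases of *Bmp4* (*Gm15217*) and 290 of 6351 of *Bmpr1a* (*Gm17110*), whose reads could likewise be included.

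**Figure D4:**
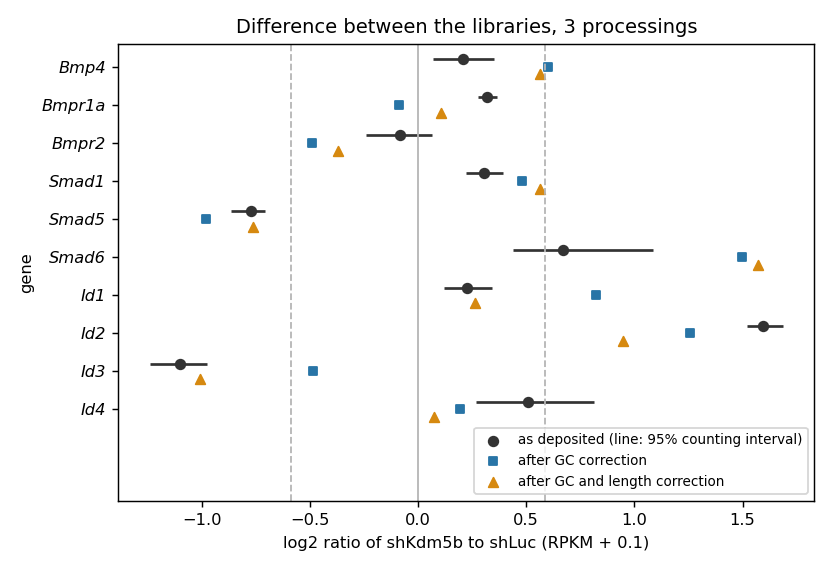
Log2 ratio of shKdm5b to shLuc of each of the 10 genes as deposited (circles, with lines for the 95% counting interval), corrected for GC content (squares) or for GC content and length (triangles), with dashed lines at 1.5-fold. *Id2* stays above and *Smad5* below the dashed lines in all 3, whereas the GC-corrected *Id3* lies at -0.49.

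By level, the order in the shLuc library was *Id3*, *Bmpr1a*, *Id1*, *Id2*, *Smad1*, *Smad5*, *Bmp4*, *Bmpr2*, *Id4* and *Smad6*. Exact Poisson counting intervals overlapped for *Bmpr1a* with *Id1* and for *Id1* with *Id2*, and for no other neighbours. In the shKdm5b library the order was *Id2*, *Bmpr1a*, *Id1*, *Smad1*, *Id3*, *Bmp4*, *Smad5*, *Bmpr2*, *Id4* and *Smad6*, and the intervals overlapped for *Smad1* with *Id3* and for *Bmpr2* with *Id4*. In the deposited values *Id2* thus moved above *Id3*, *Bmpr1a* and *Id1*, and *Bmp4* and *Smad5* changed places. *Id3* moved below *Smad1*, though their intervals overlapped in the shKdm5b library. The order was not taken after the corrections and can depend on them. With the GC correction the log2 ratios were -0.49 for *Id3* and 0.48 for *Smad1*, and 0.82 for *Id1* and -0.09 for *Bmpr1a*.

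The wider pathway was read from a list of 58 genes that includes the 10. Of the 30 with RPKM above 1, 11 were past the thresholds (36.7%, against 48.3% of all genes), 6 higher and 5 lower, and their median log2 ratio was 0.24. Of the 48 genes that were not among the 10, those past the thresholds comprised 5 higher and 3 lower genes. Those of the 48 above an RPKM of 1 were 1 ligand, 4 secreted antagonist and 8 receptor or co-receptor genes. To these came 4 SMAD or ubiquitin ligase genes and 4 other BMP-responsive genes. Among all genes above that RPKM 16.3% were higher and 32.0% lower. With the GC correction the 58 gave 11 higher and 1 lower gene, and with the added length correction 10 and 2. Over all genes the same corrections gave 2226 higher and 2086 lower, and 1822 and 1926. Scaling to the median log2 ratio gave 10 higher and 5 lower pathway genes, and scaling to the 75th percentile gave 10 and 4. Over all genes these scalings gave 2606 higher and 3026 lower, and 2725 and 2903. The balance within the pathway thus depends on both the scaling and the corrections.

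Among the ligands, *Bmp7* was higher at 0.748 RPKM (115 reads) and 1.67 RPKM (239 reads), a log2 ratio of 1.06 (0.83 to 1.49). It was 1.63 after the GC correction. *Bmp2*, a ligand made by visceral endoderm, was below 1 RPKM in both libraries, with 54 and 5 reads in shLuc and shKdm5b. Any relation of *Bmp2* to the endoderm markers given above was not tested. *Bmp6* (75 and 35 reads) and *Bmp8b* (116 and 88 reads) were also below 1 RPKM in both.

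The secreted antagonists included 1 gene past the thresholds of 4 above an RPKM of 1 (25%, against 48.3% of all genes). *Fst*, which encodes the activin and BMP antagonist follistatin, was higher at 1.05 RPKM (191 reads) and 2.64 RPKM (448 reads), a log2 ratio of 1.26 (1.09 to 1.59), and 1.60 after the GC correction. *Twsg1*, a secreted modulator of BMP and by far the most abundant of the list, had 18.5 and 27.4 RPKM, a log2 ratio of 0.57 that lies just within 1.5-fold. *Fstl3* (log2 ratio 0.29), *Dand5* (-0.52, on a non-coding entry) and *Chrd* (-0.40, below 1 RPKM in both) were not past the thresholds. After the GC correction *Fstl3* was at 0.98 and with length added at 0.94, past 1.5-fold, and *Chrd* changed sign to 0.34 and 0.44. *Nog*, the BMP antagonist noggin, had only 12 reads with shLuc and 1 with shKdm5b.

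Among the receptors, *Acvr2b*, a type II receptor shared by activins and BMPs, was lower at 10.4 and 4.50 RPKM (log2 ratio -1.19), as was the co-receptor gene *Hfe2* at 1.46 and 0.776 RPKM (log2 ratio -0.83). Their transcripts have GC contents of 64.0% and 55.2%, and after the GC correction the log2 ratios were -0.21 and -0.30, within 1.5-fold. The BMP type I receptor gene *Acvr1* (log2 ratio 0.24), the type II gene *Acvr2a* (0.46) and the co-receptor gene *Eng* (-0.43) stayed within 1.5-fold. After the GC correction *Eng* changed sign to 0.28 and *Acvr2a* was at -0.02, so their directions depend on it.

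Of the remaining SMAD genes and their ubiquitin ligases, *Smad7*, the other inhibitory SMAD gene, was lower at 23.0 RPKM (7987 reads) and 11.6 RPKM (3734 reads), a log2 ratio of -0.99 (-1.05 to -0.94), with -0.29 after the GC correction. *Smurf2*, which encodes a ligase that marks SMAD proteins and receptors for degradation, was higher at 8.22 and 15.0 RPKM, a log2 ratio of 0.86 (0.80 to 0.93), with 0.84 with the GC correction and 1.03 when length was also corrected for. *Smad4*, the common partner of the pathway, had 32.5 and 42.4 RPKM (log2 ratio 0.38), and *Smurf1* had a log2 ratio of -0.28 that changed sign to 0.38 after the GC correction and was 0.56 with length added. The GC and length correction took *Smad4* to 0.66, past 1.5-fold.

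Of the other BMP-responsive genes, *Msx2* and *Hey1*, which encode transcription factors of limb and vessel development among other tissues, were higher. *Msx2* had 0.627 RPKM (106 reads) and 1.54 RPKM (242 reads), a log2 ratio of 1.17 (0.96 to 1.64). *Hey1*, which is also a Notch target, had 1.75 RPKM (301 reads) and 3.41 RPKM (547 reads), a log2 ratio of 0.93 (0.76 to 1.17). Both stayed past the thresholds after each correction. *Dusp9*, a phosphatase gene known to respond to BMP in ES cells, had 35.9 and 24.5 RPKM, a log2 ratio of -0.55 that changed sign to 0.24 after the GC correction. *Tbx3* had a log2 ratio of -0.12, which changed sign to 0.31.

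**Figure D5:**
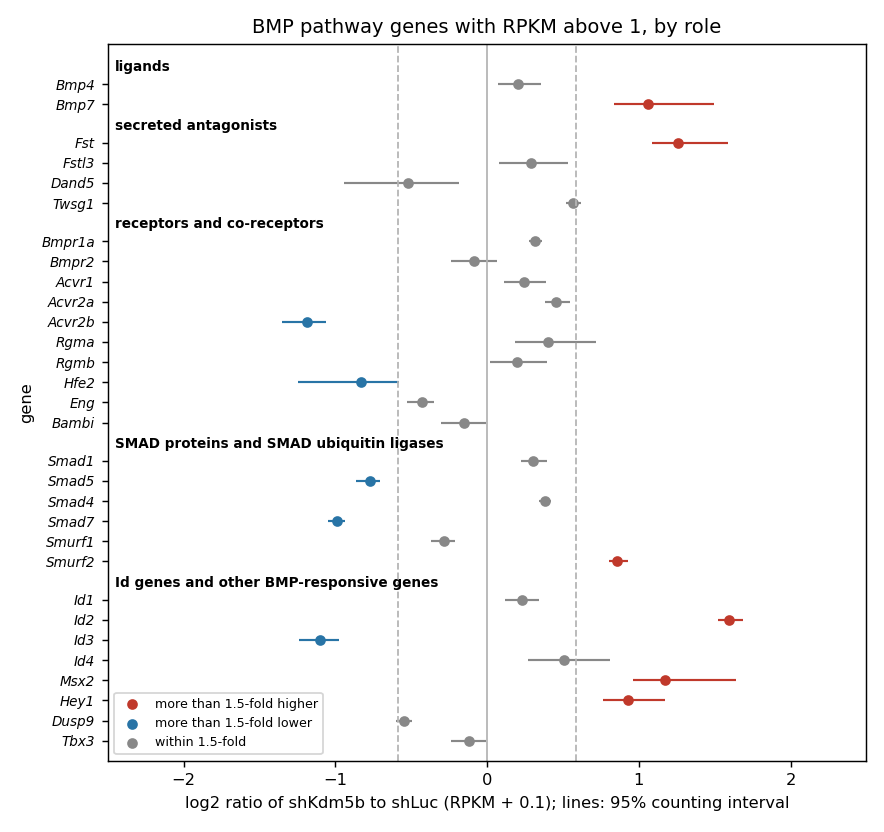
Log2 ratio of shKdm5b to shLuc of the 30 listed BMP pathway genes with RPKM above 1 in at least 1 library, grouped by role, with 95% counting intervals as lines and dashed lines at 1.5-fold. 6 genes are higher (red), 5 are lower (blue) and 19 are within 1.5-fold (grey), with genes of both directions among the SMAD and the *Id* groups.

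The E proteins, the helix-loop-helix partners that ID proteins bind, were all expressed. *Tcf3* was lower at 35.1 RPKM (9075 reads) and 20.05 RPKM (4822 reads), a log2 ratio of -0.80 (-0.86 to -0.76). With a GC content of 61.9% its log2 ratio was 0.12 after the GC correction, so its direction depends on that correction. *Tcf4* (log2 ratio -0.42) and *Tcf12* (log2 ratio 0.29) stayed within 1.5-fold. In the deposited values the summed RPKM of the 3 E protein genes was 57.8 with shLuc and 43.1 with shKdm5b. That of the *Id* genes was 56.3 and 81.4. After the GC correction the log2 ratios of *Tcf4* and *Tcf12* were -0.47 and 0.07. Of the 3 E protein genes, 0 were past the thresholds after either correction. Neither the E protein sum nor the *Id* sum was taken after the corrections, and both can depend on the processing.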

How the data were processed

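RNA-Seq of 1 shLuc and 1 shKdm5b library at 72 h without LIF was used, with groups from the sample labels and the time point from the names of the deposited tables and the methods. The submitters' processing notes name Bowtie 0.12.7, CASAVA 1.0 and mm8, with no roles. The authors deposited an RPKM value and a raw read count for each of 27405 RefSeq entries. The counting program and its use of strand are not given in the sources used here. The deposited aligned reads were not used.

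The RPKM, length and count of entries with more than 50 reads gave the library totals. Log2 ratios used a pseudocount of 0.1 RPKM, and thresholds were a fold change above 1.5 and RPKM above 1. The study applied edgeR at an FDR of 0.001. With 1 library a group this served only as an alternative (edgeR 4.0.16, R 4.3.3, TMM, exact test, FDR below 0.001 by Benjamini-Hochberg, assumed dispersions of 0 and 0.04), comparing the libraries and not the conditions. GC content came from GENCODE M21 transcripts by RefSeq accession (97.7% of compared genes, all 10 members). Corrections took out lowess curves (fraction 0.3, statsmodels 0.14.6) fitted on genes above 1 RPKM. Promoters and coordinates are from RefSeq GRCm38.p6, not the build of the reads. Alternatives were other pseudocounts, scalings of the libraries, the sum of entries, other thresholds, both corrections and the exact tests. Steps were tested on simulated data. Intervals used SciPy 1.17.1, and tables were read in Python 3.11.15 with NumPy 2.4.6 and pandas 2.3.3.

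The 10 genes, the lists and the alternatives were chosen with earlier results of these data known. Named genes are the 10 genes, *Kdm5b*, and from each list those past the thresholds and up to 4 others of highest RPKM. *Nog* and the cell type markers named lie outside that rule and were chosen after their values were seen, as were the motifs.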

Additional observations from a re-analysis of the deposited data

How the results depend on the processing

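No paired analysis was possible because each group has 1 library, and no library could be left out. The count of 3 among the 10 genes was 5 after scaling to a median log2 ratio of 0 (with *Id4* and *Smad6* added), 5 after the GC correction (with *Bmp4*, *Id1* and *Smad6* added and *Id3* lost) and 1, *Id2*, with the exact test at a dispersion of 0.04. It ranged from 2 to 4 under the other 10 alternatives. Their median log2 ratio of 0.27 was 0.43 and 0.46 after scaling to the median and to the 75th percentile, and positive in all 7 alternatives. The pathway count of 11 was 4 with RPKM above 11, 19 without an RPKM threshold, 6 with a fold change above 2 and 1 at a dispersion of 0.04. The count over all genes, 5702, was 3748 after the GC and length correction, 2678 with RPKM above 11 and 2688 with a fold change above 2. It was 7638 without an RPKM threshold and 284 at a dispersion of 0.04. Fewer genes are eligible under the stricter thresholds; the cause of the other changes was not tested. None of the 3 genes past the thresholds changed direction under the 7 alternatives that change the ratio. Depth limits *Smad6* and *Id4*, and replicate variation was not measured.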

Other observations

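The Nodal and activin arm of the TGF-beta superfamily, which signals through SMAD2 and SMAD3 and shares SMAD4 with the BMP arm, was read beside it from 14 listed genes. Of the 12 with RPKM above 1, 4 were lower with shKdm5b by more than 1.5-fold and 0 were higher, with a median log2 ratio of -0.09. The lower share, 33.3%, was near the 32.0% of all genes, and after the GC correction the list gave 3 higher and 1 lower. The lower genes were the type I receptor gene *Acvr1b* (9.31 and 2.53 RPKM, log2 ratio -1.84), *Inhbb* (log2 ratio -1.26), the Nodal inhibitor gene *Lefty1* (90.7 and 53.6 RPKM, log2 ratio -0.76) and *Gdf3* (log2 ratio -0.69). After the GC correction *Acvr1b* stayed lower at -1.38, while *Inhbb* (-0.42), *Lefty1* (0.03) and *Gdf3* (-0.52) were within 1.5-fold. *Tdgf1* (log2 ratio 0.33), *Skil* (0.05), *Lefty2* (0.04) and *Foxh1* (-0.22) were within 1.5-fold, and the GC correction took *Skil* to -0.37 and *Foxh1* to 0.60, just past 1.5-fold. The difference between the BMP and the Nodal lists was not tested.

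The endoderm list was lower in the shKdm5b library as a whole, with all 5 of its genes above 1 RPKM past the thresholds before and after each correction. Of all genes, 32.0% were lower without correction, 2086 of 11642 after the GC correction and 1926 of 11636 with length added. *Ttr*, which encodes a thyroid hormone carrier made by visceral endoderm, had 2.55 and 0.135 RPKM, and *Gata4* had 2.58 and 0.539 RPKM. Neural progenitor genes gave 1 higher gene of 3 above 1 RPKM, *Nes* (1.78 and 3.24 RPKM), and 2 of 3 after the GC correction (*Nes* at 1.43 and *Sox1* at 1.23 on the log2 scale). Among all genes 16.3% were higher without correction, and 2226 of 11642 were higher after the GC correction. Early mesoderm genes gave 1 of 2 above 1 RPKM, *Eomes* (2.45 and 4.05 RPKM), and 2 of 2 after the GC correction. The other gene, *Fgf8* (103 and 76 reads), had a log2 ratio of -0.31 as deposited (counting interval -0.78 to 0.11). Its direction thus depends on that correction. With length added the list again gave 1 of 2, with the log2 ratio of *Fgf8* at 0.69 before and 0.23 after that step. Of all 9 listed mesoderm genes, most of them under 1 RPKM, 6 were lower and 3 higher by any amount as deposited (median -0.23). Of the trophectoderm genes *Krt8* was lower (5.24 and 1.99 RPKM) and *Krt18* higher (12.3 and 19.6 RPKM). Among the fibroblast genes *Twist1* was higher (1.95 and 7.05 RPKM). The ratio of *Id1* to *Bmp4* within a library was 3.50 (3.20 to 3.83) in shLuc and 3.55 (3.26 to 3.87) in shKdm5b.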
